A study of Mus musculus with 10 samples.

Results

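The interferon receptors and the JAK-STAT proteins that bind them were examined in mouse vagal sensory neurons through 9 genes, chosen by symbol out of 24421 gene rows: the receptor chains Ifnar1, Ifnar2, Ifngr1, Ifngr2 and Il10rb, the Janus kinases Jak1, Jak2 and Tyk2, and the transcription factor Stat2. RNA was sequenced from 10 pools of hand-picked neurons in 5 groups of 2 pools. The Trpv1-tdTomato selection gave pools of 30 red nodose neurons (Trpv1+ nodose), 30 red jugular neurons (Trpv1+ jugular) and 15 neurons without red fluorescence from the nodose end (Trpv1- nodose), all from 2 Trpv1-tdTomato mice. These mice carry Cre recombinase expressed from Trpv1 together with a CAG-tdTomato reporter in the ROSA26 locus, so that red cells are those that express or once expressed Trpv1. The capsaicin selection came from C57BL/6 wild-type mice. Its nodose pools (capsaicin nodose, 14 and 15 cells) held neurons with calcium responses to α,β-methylene-ATP as well as to capsaicin, and its jugular pools (capsaicin jugular, 15 and 16 cells) those with a response to capsaicin alone. The mice that gave each pool, and their age, are not stated in the sources used here, so the spread between the 2 pools of a group may not be a spread between animals.

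Type I interferons bind a receptor made of the chains IFNAR1 and IFNAR2, to which the kinases TYK2 and JAK1 are attached. Type II interferon (interferon γ) binds IFNGR1 and IFNGR2, with JAK1 and JAK2. IL10RB is the chain that the receptors for IL-10, IL-22 and type III interferons share, each with a further chain of its own. The kinases phosphorylate STAT proteins, and a complex that contains STAT2 and IRF9 drives interferon-stimulated genes. Both chains of a receptor are needed for signalling, which is why their joint occurrence was counted here. In sensory neurons these receptors are studied as a route by which immune signals change excitability.

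Of the 9 genes, 4 lie on chromosome 16, where Ifnar2 (91372783 to 91405589), Il10rb (91406164 to 91425834), Ifnar1 (91485238 to 91507441) and Ifngr2 (91547072 to 91565623) follow each other on the plus strand within 192.8 kb (GENCODE vM21, GRCm38, the assembly also called mm10). Jak1 lies on chromosome 4 from 101152367 to 101265282 on the minus strand and Stat2 on chromosome 10 from 128270559 to 128292849 on the plus strand. Promoters were taken from RefSeq on GRCm38.p6, from 250 bases before to 50 bases after each start, and 8 of the 9 genes had one. They were searched on both strands for the letters TTCNNNGAA, the core of the interferon γ-activated sequence (GAS), and GAAANNGAA, a core of the interferon-stimulated response element (ISRE), which the complex with STAT2 and IRF9 binds. The promoters of Ifnar1 and Ifnar2 are shown because the chains of 1 receptor differed most in how often they were detected, that of Stat2 because it holds the ISRE core, and that of Jak1 because Jak1 was the member that differed between the ganglia. Capitals mark a match, and there are none in the Jak1 promoter.
Ifnar1 (chr16:91484965-91485264, plus strand): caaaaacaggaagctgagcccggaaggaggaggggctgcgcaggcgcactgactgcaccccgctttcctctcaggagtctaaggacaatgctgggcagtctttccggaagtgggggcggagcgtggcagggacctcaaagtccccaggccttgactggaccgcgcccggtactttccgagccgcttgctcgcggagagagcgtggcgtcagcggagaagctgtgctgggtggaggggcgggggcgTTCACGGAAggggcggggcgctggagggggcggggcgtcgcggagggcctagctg
Ifnar2 (chr16:91372533-91372832, plus strand): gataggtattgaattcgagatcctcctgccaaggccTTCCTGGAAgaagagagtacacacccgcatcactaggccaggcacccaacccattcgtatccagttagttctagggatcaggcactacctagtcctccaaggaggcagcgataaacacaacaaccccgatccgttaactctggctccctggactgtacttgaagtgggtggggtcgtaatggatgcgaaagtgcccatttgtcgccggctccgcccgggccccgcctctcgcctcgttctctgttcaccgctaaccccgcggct
Stat2 (chr10:128270248-128270547, plus strand): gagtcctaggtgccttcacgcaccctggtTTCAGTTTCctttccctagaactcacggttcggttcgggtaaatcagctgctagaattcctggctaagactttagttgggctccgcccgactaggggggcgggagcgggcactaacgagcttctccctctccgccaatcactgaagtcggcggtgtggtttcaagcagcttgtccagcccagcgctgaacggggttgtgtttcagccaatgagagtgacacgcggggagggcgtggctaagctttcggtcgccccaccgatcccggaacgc
Jak1 (chr4:101265174-101265473, minus strand): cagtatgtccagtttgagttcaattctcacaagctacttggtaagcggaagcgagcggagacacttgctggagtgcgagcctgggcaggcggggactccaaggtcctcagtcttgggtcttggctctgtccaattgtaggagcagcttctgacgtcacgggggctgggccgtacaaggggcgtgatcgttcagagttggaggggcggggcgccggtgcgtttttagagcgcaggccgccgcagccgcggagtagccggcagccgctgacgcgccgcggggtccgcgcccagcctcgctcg

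A GAS match began at position -5 from the start in the Ifnar1 promoter and at -214 in the Ifnar2 promoter, and the ISRE core began at -221 in the Stat2 promoter. Of all 32851 promoters in the RefSeq table, 8.30% held a GAS match and 8.56% an ISRE core, so such matches are common. The other promoters searched, those of Ifngr1, Ifngr2, Jak1, Jak2 and Tyk2, had neither set of letters in this window.

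Levels are given as CPM, read counts divided by DESeq2's size factor of the pool and by the geometric mean of the 10 pool totals. Plain CPM are read counts relative to the total of the pool itself. An error after ± is the SD of 2 pools. Total counts were 148452506 to 167704327 per pool in the Trpv1-tdTomato selection and 17666710 to 30810863 in the capsaicin selection, where 3 counts, taken as the upper limit that a count of 0 allows, equal 0.0179 to 0.0202 and 0.0974 to 0.170 plain CPM. The selection goes with the sequencing core, the strain, this depth and, for the Trpv1+ pools, the number of cells per pool. It also goes with the calcium assay, in which the capsaicin-selected cells met a dye and both agonists before collection. The paper states that this assay may have changed the levels of some genes. These differences cannot be told apart. Trpv1- nodose pools also held fewer cells than Trpv1+ nodose pools. Genes with at least 1 count numbered 8462 and 7889 in capsaicin nodose and 9378 and 10010 in capsaicin jugular. In the Trpv1-tdTomato selection they numbered 12153 to 13029 per pool. The 2 capsaicin nodose pools also correlated least, with Pearson's r = 0.677 of log2(CPM + 1) against 0.795 to 0.856 in the other groups. The part of this in genes low or absent in capsaicin nodose was not tested. The ganglion labels held in every pool: the nodose markers Hoxb5 and P2rx2 summed to at least 295 CPM in each nodose pool and at most 0.432 CPM in each jugular pool, and the jugular markers Tac1, Prdm12 and Gfra3 to at least 332 CPM in each jugular pool and at most 1.25 CPM in each nodose pool. In the capsaicin selection P2rx2 is no independent marker, since its cells were sorted with the P2X agonist α,β-methylene-ATP. Hoxb5 alone had at least 233 CPM in each nodose pool and at most 0.196 CPM in each jugular pool. Trpv1 itself stood at 0.0334 and 0.0348 CPM in the Trpv1- nodose pools and at 17.8 CPM or more in the others. All 7 neuron markers were present in each group. The defining immune genes Ptprc, Csf1r, Aif1 and Tyrobp had 0 counts in every pool, and the sum of the 10 immune markers was highest, at 37.0 CPM, in a Trpv1+ nodose pool. The 10 glial markers summed to 1582 to 4040 CPM, led by Apoe in the Trpv1-tdTomato selection and by Pmp22 in the capsaicin selection, while the glial factor Sox10 reached 10.2 CPM at most. The 4 endothelial markers summed to 23.0 CPM at most, in a Trpv1+ nodose pool. The 4 fibroblast markers summed to 41.6 and 239 CPM in the capsaicin jugular pools and to 38.4 CPM at most in the other groups. Pools were not single cells, so genes found in 1 pool need not come from the same neurons, and fewer cells with a transcript cannot be told apart from less RNA per cell.

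At 10 CPM or more, Ifnar1 and Jak1 were found in all 10 pools, Il10rb in 9, Ifngr2 and Stat2 in 7, Ifnar2 and Ifngr1 in 3, and Jak2 and Tyk2 in 2. Of the 9 members, 6 passed the rule of 10 CPM in both pools of at least 1 group, and Ifngr1, Jak2 and Tyk2 did not. The share of all genes that passed was not counted. A pool held between 3 and 8 members at this level. The plot of the members by pool shows Ifnar1 and Jak1 in every pool, and Ifngr1, Jak2 and Tyk2 on in some pools and off in others. Genes outside the members also did either. Stat3 was at 70.4 CPM or more in every pool, whereas Stat6 had 42.4 and 0.0196 CPM in the Trpv1+ nodose pools. The share of all genes that went on and off between pools was not counted.

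**Figure D1:**
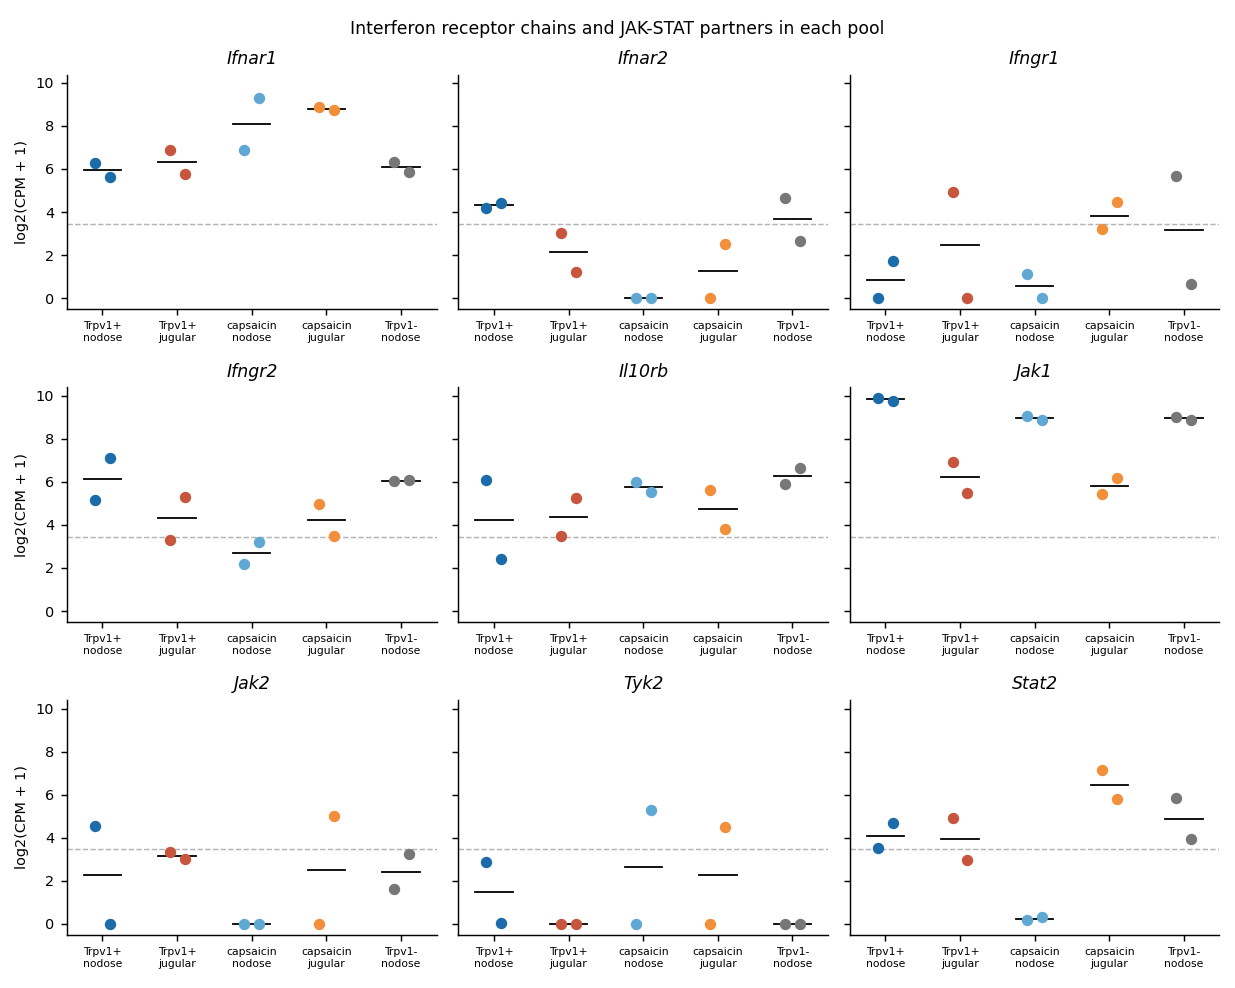
Level of each of the 9 genes on the log2(CPM + 1) scale in the 10 pools, by group; each point is 1 pool, the black line is the mean of the 2 points on that scale, and the dashed line marks 10 CPM. Ifnar1 and Jak1 lay above the line in all 10 pools, and Jak2 and Tyk2 in 2 pools each.

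Jak1, the kinase that type I and type II interferon receptors and many cytokine receptors share, was higher in nodose than in jugular neurons. It stood at 949 and 870 CPM in the Trpv1+ nodose pools and 530 and 474 CPM in the capsaicin nodose pools. The Trpv1+ jugular pools had 119 and 44.2 CPM and the capsaicin jugular pools 42.6 and 71.3 CPM. All 4 nodose pools lay above all 4 jugular pools, and the lowest nodose pool was 3.99 times the highest jugular pool (1.57 times with plain CPM). Among the 10670 genes tested over these pools, 1.98% had all 4 nodose pools above all 4 jugular pools.

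In the fit to these 8 pools with the selection as a covariate, the log2 fold change of Jak1 (jugular over nodose) was -3.16 (SE 0.46, adjusted p = 0.0129 in edgeR's quasi-likelihood test with Benjamini-Hochberg adjustment over all genes). This corresponds to a level 8.95-fold higher in nodose neurons. Jak1 was the only member called, where called means that the adjusted p did not exceed 0.1, the fold reached 2 and both pools of a group had 10 CPM or more. Of all 10670 genes tested, 88 or 0.825% were called, 41 or 0.384% with the higher level in nodose, against 1 of the 9 members. The call held in 13 of 13 alternative fits, with adjusted p from 5.60e-08 to 0.0759 and log2 fold changes from -3.47 to -2.87.

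Within the Trpv1-tdTomato selection the log2 fold change of Jak1 was -3.48 (SE 0.52, adjusted p = 0.169 in edgeR's test), and within the capsaicin selection it was -2.79 (SE 0.74, adjusted p = 0.352). Neither passed the threshold in the fit to its own 4 pools, although the nodose pools lay above the jugular pools in both. The difference between these effects was 0.71 on the log2 scale (SE 0.85, adjusted p = 0.925 in edgeR's test of the interaction). With 2 pools in each arm the smallest p of an exact permutation test is 0.33, so that edgeR's sharing of the spread among genes carries these comparisons.

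The order of the group means of Jak1 was Trpv1+ nodose (909 ± 55.6 CPM, n = 2), capsaicin nodose (502 ± 39.9), Trpv1- nodose (495 ± 30.1), Trpv1+ jugular (81.5 ± 52.7) and capsaicin jugular (56.9 ± 20.3). The pools of capsaicin nodose and Trpv1- nodose overlapped, as did those of the jugular groups, and the remaining neighbours did not. With plain CPM, Trpv1- nodose (845 and 765 CPM) came before capsaicin nodose (567 and 263 CPM) without overlap. On the size-factor scale the Trpv1- nodose pools had 517 and 474 CPM, both below the Trpv1+ nodose pools. Their log2 fold change (Trpv1+ over Trpv1-) was 0.90 (SE 0.20, adjusted p = 0.366 in edgeR's test) and was not called. Of 11386 genes tested in that comparison, 6 or 0.0527% were called.

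**Figure D2:**
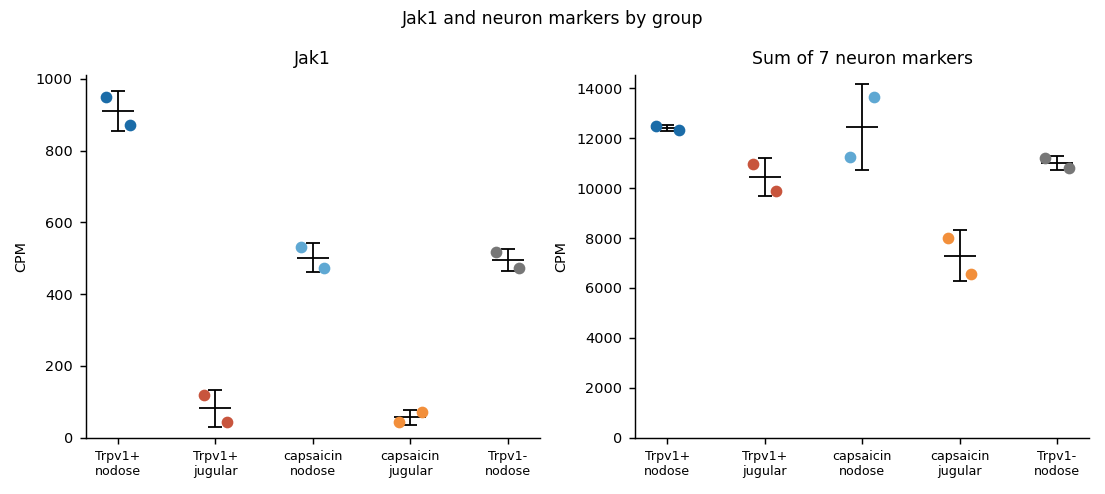
CPM of Jak1 (left) and summed CPM of the 7 neuron markers (right) in each group on linear axes from 0; points are pools and bars the mean ± SD of 2 pools. The Jak1 points of the 3 nodose groups lie between 474 and 949 CPM and those of the jugular groups between 42.6 and 119 CPM.

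The summed neuron markers (Snap25, Prph, Tubb3, Uchl1, Stmn2, Elavl4 and Rbfox3) reached 11242 to 13657 CPM in the 4 nodose pools of the 8-pool fit and 6575 to 10986 CPM in the jugular pools. With plain CPM they overlapped (7576 to 16366 CPM in nodose, 8926 to 15490 CPM in jugular). Their nodose mean was 1.19 times the jugular mean in the Trpv1-tdTomato selection and 1.71 times in the capsaicin selection, against 11.2 times and 8.82 times for Jak1 (10.1 and 5.70 times with plain CPM). The capsaicin ratio of the markers rested on Snap25. Without it, an alternative chosen after the values were seen, the capsaicin sums overlapped (5166 and 5474 CPM in nodose, 5231 and 5407 CPM in jugular) and the ratio in the Trpv1-tdTomato selection was 1.15. The median log2 fold change of the 7 markers (jugular over nodose) was -0.23 in the Trpv1-tdTomato selection, 0.30 in the capsaicin selection and -0.079 over 8 pools. Rbfox3 was higher in the jugular pools of both selections, without overlap. Summed glial markers overlapped between the ganglia (1639 to 3565 CPM in nodose, 1582 to 4040 CPM in jugular), and their part in the Jak1 difference was not tested. Raver2, which lies on the opposite strand with exons that overlap those of Jak1, reached at most 4.14 CPM in any pool. Whether counting used strand is not given in the sources used here.

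The type I receptor chains did not share a pattern. Ifnar1, the chain that TYK2 binds, had 76.7 and 48.9 CPM in the Trpv1+ nodose pools, 116 and 53.6 in Trpv1+ jugular, 115 and 636 in capsaicin nodose, 467 and 427 in capsaicin jugular and 79.3 and 56.3 CPM in Trpv1- nodose. The capsaicin pools were the highest, but the lower capsaicin nodose pool overlapped with the higher Trpv1+ jugular pool. The log2 fold change of Ifnar1 (jugular over nodose) was 0.54 (SE 0.55, adjusted p = 0.957 in edgeR's test of 8 pools), smaller than its error. On the size-factor scale no neighbours in the order of its group means were separated. With plain CPM, capsaicin jugular (537 and 579 CPM) lay above capsaicin nodose (123 and 353 CPM) without overlap.

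Ifnar2, the chain that JAK1 binds, had 17.5 and 20.2 CPM in Trpv1+ nodose, 7.15 and 1.35 in Trpv1+ jugular, and 24.1 and 5.38 CPM in Trpv1- nodose. It had 0 counts in both capsaicin nodose pools and in 1 capsaicin jugular pool, and 4.67 CPM in the other. A count of 0 allows up to 0.134 and 0.0974 plain CPM in the capsaicin nodose pools and 0.135 plain CPM in the jugular pool, for counting error alone. The capsaicin nodose pools were also those with the fewest genes detected. Both Trpv1+ nodose pools were above both Trpv1+ jugular pools, and the share of all genes with such a separation was not counted. The log2 fold change was -2.15 (SE 1.92, adjusted p = 0.836 in edgeR's test), which was not called. Gm21970, a gene of the GENCODE annotation on the same strand, shares exons with Ifnar2 and with Il10rb. It has no row in the count files, so whether it affected the counting of these genes is not known.

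Per kb of exon, Ifnar1 exceeded Ifnar2 in every pool. Where both chains had more than 3 counts, the ratio was 2.46 and 1.35 in Trpv1+ nodose, 1.84 and 5.86 in Trpv1- nodose, 9.09 and 22.3 in Trpv1+ jugular and 51.2 in the second capsaicin jugular pool. The ratio was thus lower in the nodose pools of the Trpv1-tdTomato selection than in its jugular pools, without overlap and with no test. Both chains reached 10 CPM in 3 of 10 pools, which were the 2 Trpv1+ nodose pools and 1 Trpv1- nodose pool (with plain CPM 4, with 1 Trpv1+ jugular pool added). At 1 CPM the pair was present in 7 pools, all 6 of the Trpv1-tdTomato selection and 1 of 4 of the capsaicin selection.

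**Figure D3:**
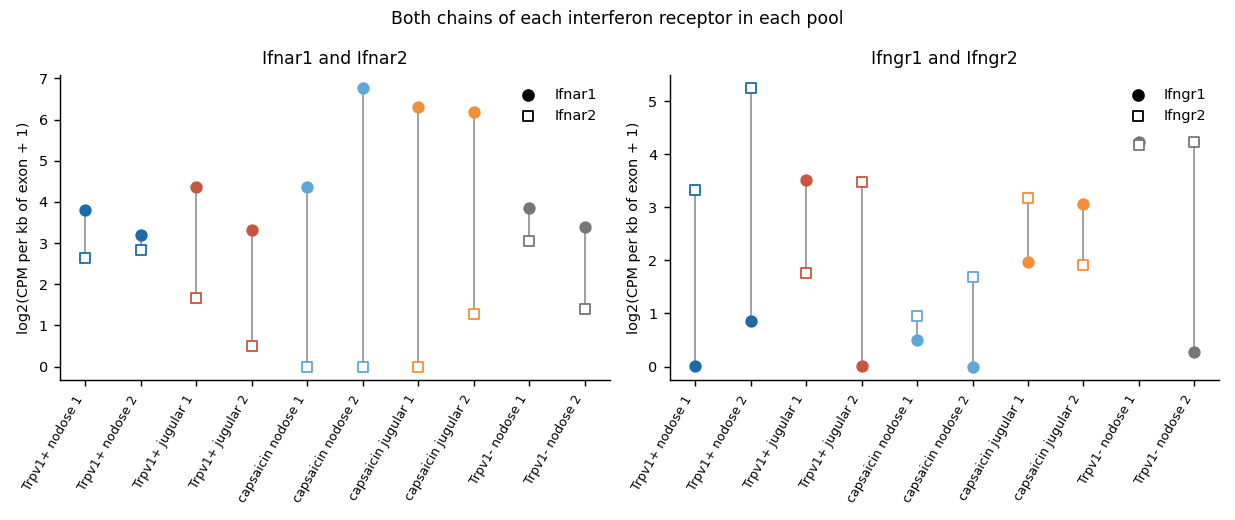
Level per kb of exon, as log2(CPM per kb + 1), of both chains of the type I receptor (left) and of the type II receptor (right) in each pool; a grey line joins the chains of 1 pool, filled circles are Ifnar1 or Ifngr1 and open squares Ifnar2 or Ifngr2. Ifnar1 lies above Ifnar2 in all 10 pools, while Ifngr1 lies above Ifngr2 in 3 pools and below it in 7.

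For the type II receptor, Ifngr2, the chain that JAK2 binds, was found more evenly than Ifngr1, the chain that binds the ligand and JAK1. Ifngr2 had 34.2 and 138 CPM in Trpv1+ nodose, 8.96 and 37.9 in Trpv1+ jugular, 3.54 and 8.37 in capsaicin nodose, 30.1 and 10.3 in capsaicin jugular and 63.9 and 67.2 CPM in Trpv1- nodose. Its lowest group was capsaicin nodose, whose pools lay below those of every other group, by a small margin (8.37 against 8.96 CPM in Trpv1+ jugular). These were also the pools with the fewest genes detected. The share of all genes that were lowest there was not counted. The log2 fold changes (jugular over nodose) were -1.88 (SE 1.19) in the Trpv1-tdTomato selection and 2.15 (SE 2.42) in the capsaicin selection, with adjusted p = 0.718 and 0.996 in edgeR's test. For the difference between these effects, edgeR's test of the interaction gave adjusted p = 0.596.

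Ifngr1 was above 20 CPM in 1 pool and under 1 CPM in the other in both Trpv1+ jugular and Trpv1- nodose. It had 0.0103 and 2.29 CPM in Trpv1+ nodose, 29.7 and 0.00808 in Trpv1+ jugular, 1.17 and 0 in capsaicin nodose, 8.24 and 21.0 in capsaicin jugular and 50.4 and 0.588 CPM in Trpv1- nodose. In both selections a jugular pool was the highest of the 4 compared, and the 8-pool comparison was not called (adjusted p = 0.870 in edgeR's test). Both chains reached 10 CPM in 2 of 10 pools, 1 capsaicin jugular and 1 Trpv1- nodose pool (with plain CPM 3, with 1 Trpv1+ jugular pool added). At 1 CPM the pair was present in 6 pools, 1 or 2 in each group.

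Il10rb, the shared chain, was broadly present. It had 66.2 and 4.36 CPM in Trpv1+ nodose, 10.2 and 36.8 in Trpv1+ jugular, 63.2 and 45.0 in capsaicin nodose, 48.8 and 13.0 in capsaicin jugular and 59.5 and 98.3 CPM in Trpv1- nodose. Neighbouring groups overlapped on this scale, while with plain CPM Trpv1- nodose (97.4 and 159 CPM) lay above capsaicin nodose (67.7 CPM at most). For Il10rb, the log2 fold change over 8 pools was -0.62 (SE 1.30, adjusted p = 1 in edgeR's test). The chains that pair with it were at or near 0. Il10ra had 0 counts in all pools, Ifnlr1 reached at most 0.275 CPM and Il22ra1 at most 0.625 CPM. No pool held Il10rb with any of these 3 chains at 10 CPM or at 1 CPM.

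Among the other Janus kinases, Jak2 had 22.2 and 0 CPM in Trpv1+ nodose, 9.21 and 6.99 in Trpv1+ jugular, 0 in both capsaicin nodose pools, 0 and 31.6 in capsaicin jugular and 2.08 and 8.41 CPM in Trpv1- nodose. Tyk2 was detected least often, with 6.31 and 0.0343 CPM in Trpv1+ nodose, 0 and 0.0121 in Trpv1+ jugular, 0 and 38.3 in capsaicin nodose, 0 and 21.9 in capsaicin jugular and 0 in both Trpv1- nodose pools. Both kinases thus went from 0 to over 20 CPM between the pools of 1 group. In edgeR's test of 8 pools the adjusted p was 0.986 for Jak2 and 0.970 for Tyk2. An antisense gene, 1700084C06Rik, overlaps exons of Tyk2 and has no row in the count files.

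Complete sets of chains and kinases were found in few pools, and the part of transcripts missed in a pool was not tested. Ifnar1, Ifnar2, Jak1 and Tyk2 reached 10 CPM together in 0 of 10 pools and 1 CPM in 2 pools, the first Trpv1+ nodose pool and the second capsaicin jugular pool. Ifngr1, Ifngr2, Jak1 and Jak2 reached 10 CPM together in 1 pool, the second capsaicin jugular pool, and 1 CPM in 3 pools. At 10 CPM, Tyk2 and Jak2 were each missing from 8 pools and Ifnar2 and Ifngr1 from 7, while Ifnar1 and Jak1 were missing from none.

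Stat2, the STAT particular to type I and type III interferon signalling, had 10.5 and 24.4 CPM in Trpv1+ nodose, 29.7 and 6.84 in Trpv1+ jugular and 56.5 and 14.2 CPM in Trpv1- nodose. In the capsaicin selection it had 140 and 54.7 CPM in the jugular pools, against 3 and 4 counts (0.125 and 0.234 CPM) in the nodose pools. The capsaicin groups did not overlap, whereas the Trpv1+ groups did. The capsaicin nodose pools were also those with the fewest genes detected, and the share of all genes separated in this way was not counted. The fibroblast marker Dcn had 239 and 17.0 CPM in these capsaicin jugular pools and 38.4 and 0 CPM in the capsaicin nodose pools. The part of such cells in the Stat2 values was not tested. In edgeR's test the capsaicin comparison gave an adjusted p of 0.352, and the interaction of ganglion and selection an adjusted p of 0.478. DESeq2 called Stat2 higher in jugular neurons of the capsaicin selection (adjusted p = 0.00145) and over the 8 pools (adjusted p = 0.0336).

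Counted over the 9 genes, edgeR called 0 members in the Trpv1-tdTomato selection (8 tested, 1 at an unadjusted p under 0.05, and DESeq2 called 1, Jak1). It called 0 in the capsaicin selection (7 tested, 2 under 0.05, and DESeq2 called 1, Stat2) and 0 between Trpv1+ and Trpv1- nodose pools (8 tested, 1 under 0.05, and DESeq2 called 0). The share of all genes called by edgeR was 0.318% of 10990, 0% of 8181 and 0.0527% of 11386, and by DESeq2 3.05% of 15028, 6.04% of 12162 and 2.09% of 15300. In the test of any difference among the 5 groups, Jak1 was called (adjusted p = 0.00614 in edgeR's test), 1 of 9 members against 616 or 4.75% of 12957 genes. DESeq2 called 4 of the 9 members in that test, Ifnar1, Ifngr2, Jak1 and Stat2, against 16.4% of 16248 genes. With the replicate number as a block the adjusted p of Jak1 was 0.174 in edgeR's test.

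**Figure D4:**
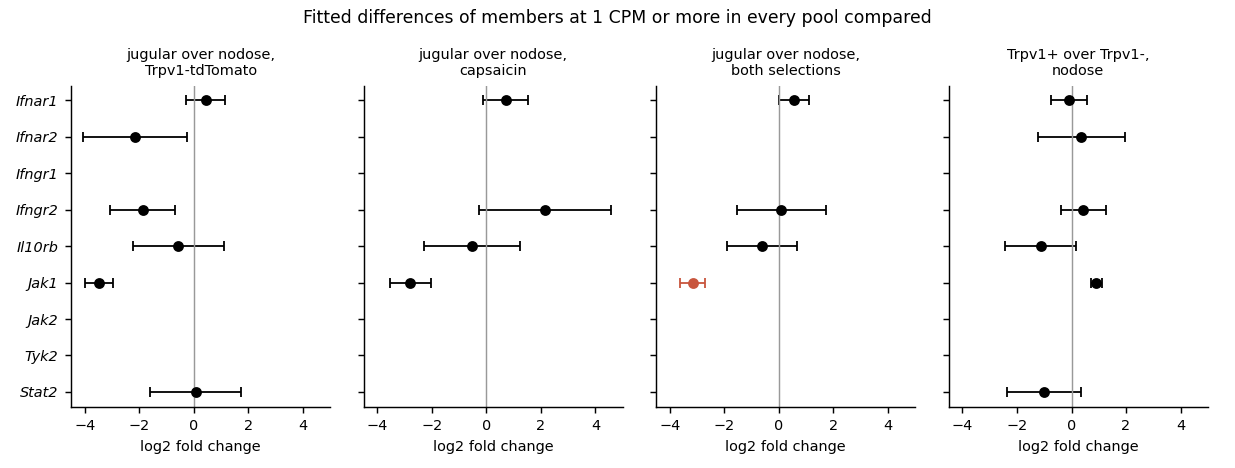
Log2 fold change with its SE (horizontal bar) in edgeR's fits, for members at 1 CPM or more in every pool compared; negative values in the first 3 panels are higher in nodose neurons, and the last panel gives Trpv1+ over Trpv1- nodose. Jak1 in both selections together (-3.16, in red) is the 1 called value.

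Compared within a group and per kb of exon, Jak1 was the most abundant member in the 3 nodose groups, at 126 ± 7.70 CPM per kb (n = 2) in Trpv1+ nodose, 69.4 ± 5.53 in capsaicin nodose and 68.5 ± 4.17 CPM per kb in Trpv1- nodose. In both jugular groups Ifnar1 came first, at 14.3 ± 7.43 CPM per kb in Trpv1+ jugular and 75.3 ± 4.81 in capsaicin jugular, and Jak1 stood at 11.3 ± 7.29 and 7.87 ± 2.81 CPM per kb. The first and second members overlapped in capsaicin nodose (Jak1 and Ifnar1) and in Trpv1+ jugular (Ifnar1 and Jak1), and did not overlap in the other 3 groups.

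Irf9, the DNA-binding partner of STAT2, ranged from 0.0417 to 30.1 CPM and passed 10 CPM in 3 pools. These were 1 each of Trpv1+ nodose, capsaicin jugular and Trpv1- nodose. Stat3, which serves IL-6 and IL-10 family receptors, was present in every pool at 70.4 to 304 CPM. Stat6 ranged from 0.0196 to 103 CPM, and Jak3 had 0 counts in all pools.

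Inhibitors of the pathway were detected in an uneven way. Socs1 and Socs3, which bind Janus kinases, ranged from 0 to 14.1 and from 0 to 31.8 CPM, and Usp18, which binds IFNAR2 and limits its signalling, was at 94.4 CPM in 1 capsaicin jugular pool and at most 3.17 CPM elsewhere. Named by their mean CPM, the next inhibitors were Socs2 (0.0834 to 136 CPM), Pias1 (0.00490 to 234), Cish (3.09 to 124), Ptpn1 (0.0585 to 122), Ptpn11 (0.459 to 87.5) and Socs7 (1.38 to 86.1 CPM). Cish was the only one of these 9 above 3 CPM in all pools. Of the 13 inhibitors, 8 were at 10 CPM in both pools of a group, a share that was not counted over all genes. The median log2 fold change of the inhibitors over 8 pools was -0.33 (11 tested), against 0.16 over all genes tested. It was -1.09 in the Trpv1-tdTomato selection (all genes -0.027) and 0.28 in the capsaicin selection (all genes 0.018).

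The 11 ligand genes searched, among them Ifnb1, Ifng, Ifnl2, Ifnl3, Il10 and Il22, had 0 counts in every pool. Of the 35 interferon-stimulated genes, 19 reached 10 CPM in both pools of a group. The share of all genes that did so was not counted. Named by their mean CPM, these 19 included Ifi27 (138 to 611 CPM), the class I gene B2m (64.4 to 283), Ifi35 (26.1 to 196), the class I genes H2-D1 (10.4 to 130) and H2-K1 (22.1 to 134) and Oasl2 (3.32 to 184 CPM). Mx1 and Oas2, by contrast, were at 0.0196 and 0 CPM at most.

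The summed level of the 35 interferon-stimulated genes was 1670 to 1711 CPM in Trpv1+ nodose, 1139 to 1391 in Trpv1+ jugular, 1021 to 2199 in capsaicin nodose, 443 to 1780 in capsaicin jugular and 763 to 1069 CPM in Trpv1- nodose. The Trpv1+ nodose pools lay above the pools of both other groups of that selection. The 10 immune markers summed to 9.12 and 37.0 CPM in Trpv1+ nodose, at most 0.0121 CPM in Trpv1+ jugular and at most 0.383 CPM in Trpv1- nodose. In Trpv1+ nodose these counts came from the class II genes Cd74 and H2-Aa, with the other 8 markers at 0, and their part in the sum of interferon-stimulated genes was not tested. The median log2 fold change over 8 pools was 0.28 for the 29 of these genes that were tested, against 0.16 over all genes. Within the selections it was -0.30 (Trpv1-tdTomato, all genes -0.027) and -0.065 (capsaicin, all genes 0.018), and for Trpv1+ over Trpv1- nodose it was 0.89 (all genes 0.015). Over the 6 lists of pathway genes and neighbours, edgeR called 0 of 74 genes over the 8 pools (47 tested, 4 at an unadjusted p under 0.05). DESeq2 called 6 of 60 there, against 7.39% of 15588 genes, namely Ifitm2, Ifitm3, Iigp1, Psmb8, Samd9l and Socs5.

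The neighbours of the receptor cluster on chromosome 16 varied among themselves. Son had 18.3 to 144 CPM and was detected in every pool. Tmem50b had 1.01 CPM in the first Trpv1+ nodose pool and 30.4 to 343 CPM in the others, and Gart ranged from 0 to 91.5 CPM. Dnajc28 and Donson were under 1 CPM in 8 pools each. In the capsaicin selection, where Ifnar2 was found in the second jugular pool alone, Donson had 0 counts in all 4 pools, and Dnajc28 was at 32.0 CPM in that jugular pool and at most 0.0585 CPM in the other 3. Gart went the other way, with 0 counts in the second jugular pool, 32.0 CPM in the first and 91.5 and 0.176 CPM in the nodose pools. In the capsaicin nodose pools Tmem50b had 244 and 343 CPM, Il10rb 63.2 and 45.0 and Ifnar1 115 and 636 CPM.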

How the data were processed

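RNA of pools of 14 to 30 neurons was copied from the poly(A) end and amplified by PCR with an ultra-low input kit without molecular identifiers, and sequenced in pairs. The deposited values are raw counts for each gene symbol, not normalized, which the authors made on mm10 with TopHat2 2.0.9, Bowtie2 2.1.0.0 and HTSeq after CASAVA 1.8.2 (submitters' processing notes); HTSeq's version, annotation and strand setting are not given in the sources used here. The authors tested with DESeq2.

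CPM were counts divided by DESeq2 size factors and by the geometric mean of the totals. The test was edgeR's quasi-likelihood test (edgeR 4.0.16, R 4.3.3; TMM, filterByExpr) with Benjamini-Hochberg adjustment over all genes tested. Called means adjusted p no higher than 0.1, fold 2 or more (not in the 5-group test) and 10 CPM in both pools of at least 1 group compared. SE is the log2 fold change over the square root of F. Comparisons were jugular against nodose within each selection, over 8 pools with selection as covariate, Trpv1+ against Trpv1- nodose, and all 5 groups. Log2 fold changes are given for members at 1 CPM or more in every pool compared. Alternatives were DESeq2 1.42.0, its size factors in edgeR, no filter, a replicate block, all 10 pools in 1 fit, each pool left out, and no Rn45s, which held 0.0143% to 10.3% of counts. Fits were also run on simulated counts with changes in well-counted genes only, which does not test genes that went on and off between pools. Counting floors cover counting error only. Replicate pools were no copies of each other (chi-square per degree of freedom 513 to 3040). The files held 27 rows with month-like symbols, none a member.

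Genes named are the 9 members, Stat3, Irf9, Jak3, Ifnlr1, Il10ra, Il22ra1, Socs1, Socs3, Usp18, the 5 neighbours, up to 6 further genes a list that were called or at 10 CPM in both pools of a group, by mean CPM, and the 3 genes most like each interferon receptor chain; others were chosen after their values were seen. Members and lists were chosen with earlier results of these data known. Some listed genes are not reported here and were left out of the lists. Lengths are of merged exons in GENCODE vM21, from 2.85 to 7.23 kb for the members. Python 3.11.15 made tables and figures.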

Additional observations from a re-analysis of the deposited data

How the results depend on the processing

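Jak1 kept its sign in every alternative of the 4 comparisons that have a direction, and its call over 8 pools in all 13, and Stat2 was not called by edgeR in any fit of 4 or 8 pools. With DESeq2 in place of edgeR, members called were 1 (Trpv1-tdTomato selection, Jak1), 1 (capsaicin, Stat2), 2 (both, Jak1 and Stat2) and 4 (5 groups), and genes called were 459, 734, 1152 and 2658, with 320 between Trpv1+ and Trpv1- nodose. Without the filter on low counts, members called were 1 (Trpv1-tdTomato, Jak1), 1 (both, Jak1) and 2 (5 groups, Ifnar1 and Jak1). Genes called were then 59 of 15028 (Trpv1-tdTomato), 122 of 12162 (capsaicin), 222 of 15588 (both), 1533 of 16248 (5 groups) and 10 of 15300 (Trpv1+ against Trpv1-). With all 10 pools in 1 fit, Jak1 was the 1 member called in each selection (adjusted p = 0.0537 and 0.0477 in edgeR's test). In that fit 26 of 12957 genes were called in the Trpv1-tdTomato selection and 110 of 12957 in the capsaicin selection.

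Deviations of same-numbered pools from their group means correlated across genes with r = -0.00568 (Trpv1-tdTomato), -0.0372 (capsaicin) and -0.0133 (Trpv1+ and Trpv1- nodose). No likeness of same-numbered pools was thus seen across genes. Whether such pools shared a mouse cannot be told from these values, since genes that went on and off between pools enter them too. With the replicate block, genes called were 13, 20, 41, 30 (5 groups) and 1 (Trpv1+ against Trpv1-). It left 0 members called in the 5-group test, and the log2 fold changes of Il10rb (0.20) and Stat2 (-0.16) in the Trpv1-tdTomato selection and of Ifngr2 (-0.11) over 8 pools changed sign. DESeq2's size factors in edgeR and DESeq2 itself also turned Ifngr2 over 8 pools from 0.08 to -0.0783 and -0.0791. That scaling moved the median log2 fold change of all genes from 0.16 to 0.03 over 8 pools and from 0.02 to -0.09 in the capsaicin selection. Leaving out Rn45s turned no sign and moved no count of members.

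Leaving out each pool in turn gave 0 genes in the Trpv1-tdTomato selection and 0 for Trpv1+ against Trpv1-, where an arm then has 1 pool whose spread is assumed to be that of the other. It gave 0 to 26 genes in the capsaicin selection (0 only without capsaicin nodose replicate 2), 36 to 81 over 8 pools (at most 49 without either Trpv1+ nodose, Trpv1+ jugular or capsaicin jugular pool) and 463 to 1191 in the 5-group test (1191 without capsaicin nodose replicate 1). Without either capsaicin nodose pool, 2 members were called in the 5-group test, Ifnar1 and Jak1, against 1 in each other case. The log2 fold changes that changed sign then ranged as follows. For jugular over nodose in the Trpv1-tdTomato selection, Ifnar1 ranged from -0.20 to 0.91, Il10rb from -1.76 to 2.43 and Stat2 from -1.33 to 0.81. Il10rb ranged from -1.71 to 0.10 in the capsaicin selection and from -1.10 to 0.43 over 8 pools, where Ifngr2 ranged from -0.82 to 1.03. For Trpv1+ over Trpv1-, Ifnar1 ranged from -0.43 to 0.22, Ifnar2 from -0.36 to 1.88, Ifngr2 from -0.90 to 1.13 and Stat2 from -1.74 to 0.37. None of these was called, and the cause was not tested.

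At 1 CPM in place of 10 CPM, Ifnar1 with Ifnar2 occurred in 7 pools in place of 3, Ifngr1 with Ifngr2 in 6 in place of 2, the type I set with kinases in 2 in place of 0, and the type II set with kinases in 3 in place of 1. With plain CPM the type II set occurred in 2 pools, Ifnar1 with Ifnar2 in 4 and Ifngr1 with Ifngr2 in 3. In the capsaicin selection a count of 0 allows up to 0.0974 to 0.170 plain CPM, so a lower level was not detectable, and with 14 to 30 cells a pool a transcript of few cells can be missed.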

Other observations

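The 3 genes whose log2(CPM + 1) followed each interferon receptor chain most closely over the 10 pools were sought among 7557 genes with a mean of at least 10 CPM, besides the chain itself (7558 for Ifnar2, whose own mean is lower). For Ifnar1 they were Sfxn5 (Pearson's r = 0.955), Bend4 (0.953) and B3galt1 (0.952). For Ifnar2 they were Znfx1 (r = 0.984), Cdc42ep2 (0.949) and Zfp329 (0.947). For Ifngr1 they were Tada1 (r = 0.871), Plekha3 (0.854) and Ipo13 (0.851), and for Ifngr2 Coasy (0.913), Chd6 (0.910) and Sypl (0.909). No gene was named for more than 1 chain. These 10 pools share 2 selections that differ in depth, strain, sequencing core and handling of the cells, so the values are a description of likeness and carry no p.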
